A study of Rattus norvegicus with 7 samples.

Results

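Solute carriers are the membrane proteins that move ions, sugars, amino acids, nucleosides, metals and metabolites across the cell surface and the membranes of organelles. All genes on the array whose symbol begins with Slc and a digit were taken, which gave 120 of the 4736 genes with a probe set of a single gene symbol. They were read by 181 probe sets and belonged to 37 families. For the 43 genes with several probe sets, the probe set with the highest mean signal stood for the gene. The cells were alveolar type 2 cells, the surfactant-making epithelial cells of the lung, isolated by immunoabsorption from male Sprague Dawley rats. The 3 ethanol rats had received a Lieber-DeCarli liquid diet with ethanol at 36% of calories for 6 weeks. The 4 control rats had received, for the same 6 weeks, an isocaloric liquid diet without ethanol. One array was made per animal, so the p-values measure the spread between animals. All control arrays carry lower array numbers than all ethanol arrays, so diet and anything that follows this numbering cannot be told apart. The ethanol replicates are numbered 2 to 4, and no ethanol replicate 1 is among the arrays.

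Most carriers use a gradient made by a pump. The sodium pump sets the sodium gradient that drives glucose, amino acid and phosphate uptake across the plasma membrane, and the carriers of the inner mitochondrial membrane exchange ATP, phosphate and citrate between matrix and cytosol. In type 2 cells the carriers are known for supplying choline, fatty acids, glucose and phosphate to surfactant synthesis, and for taking part in the clearance of fluid, peptides and protons from the alveolar surface. The sodium phosphate cotransporter Slc34a2, a known type 2 cell marker, was not analysed here, nor was Slc20a1.

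The deposited values were read as log2 signal from their range of 1.65 to 12.84. The array medians lay between 4.56 and 4.62. The identity of the cells was checked on 5 measured type 2 cell markers. The surfactant protein gene Sftpc had a mean of 12.80 ± 0.0392 over the controls (SD, n = 4) and of 12.58 ± 0.186 over the ethanol arrays (SD, n = 3). The mean of the 5 markers was 10.10 to 10.40 on the control arrays and 9.80 to 10.42 on the ethanol arrays. Markers of other lung epithelium also gave signal. The mean of 2 club cell markers was 7.62 to 8.87 on the control arrays and 8.06 to 8.35 on the ethanol arrays. For 4 type 1 cell markers it was 5.84 to 6.15 and 5.84 to 6.31. None of these 4 passed, and 2 had an unadjusted p under 0.05 in limma, where the share over all genes was 4.37%. Cav1 was higher with ethanol (0.58 log2) and Pdpn lower (-0.47). The 7 measured fibroblast and smooth muscle markers were all lower with ethanol, with a median log2 difference of -0.50 and list means of 5.45 to 6.01 in the controls and 5.32 to 5.45 with ethanol. None of the 7 passed the test and 4 had an unadjusted p under 0.05 in limma, where 2.58% of all genes did so on the lower side. Of all 4736 genes, 2527 were lower. The 4 macrophage markers had list means of 6.44 to 7.09 and 6.46 to 6.86. Lyz2 was far brighter than the rest, at 11.70 over all arrays against 4.33 for Csf1r, 4.65 for Fabp4 and 5.97 for Cd14. In a mixed RNA sample, fewer cells of a type and less RNA per cell cannot be told apart. The part of other cells in the carrier values below was not tested.

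No solute carrier gene passed the test between the diets. In limma with Benjamini-Hochberg adjustment over all 8740 probe sets, 0 of the 120 genes had an adjusted p under 0.05, where 0.0211% of all 4736 genes did (13 of the 8740 probe sets, 0.149%), and the lowest adjusted p was 0.967. At unadjusted p under 0.05 there were 3 of the 120, where the share over all genes was 4.37% (1.79% higher and 2.58% lower). They were Slc24a2 and Slc6a20a on the higher side and Slc15a4 on the lower. Differences below are ethanol minus control on the log2 scale. They ran from -0.47 for Slc12a1 to 0.38 for Slc6a20a, with 53 carriers higher and 67 lower, 44.2% higher against 46.6% of all genes. The median was -0.023 for the carriers and -0.014 for all genes. A difference over 0.5 in size was found in 0 carriers, against 1.98% of all genes. The groups did not overlap in 6 of the 120 carriers, against 4.92% of all genes. The ethanol arrays lay above all controls in 2, Slc24a2 and the brain proline carrier gene Slc6a7 (2.09% of all genes), and below all controls in 4, Slc29a1, the fructose carrier gene Slc2a5, Slc30a2 and Slc3a2 (2.83% of all genes).

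The intervals bound the difference in signal of the probe set that stood for each gene, and not that of an undetected transcript. In 101 of the 120 carriers (84.2%) the 95% interval of the difference lay within 1.5-fold in both directions, and in 118 within 2-fold; for all genes the share within 1.5-fold was 74.5%. The exceptions to the 2-fold bound were Slc25a4, which encodes the heart and muscle form of the ADP/ATP translocase, with an interval up to 1.20, and Slc12a1, the kidney sodium potassium chloride cotransporter gene, with an interval down to -1.09. The median SD within groups was 0.165 for the carriers and 0.188 for all genes. These intervals are for single genes and are not adjusted for the number of genes. Single arrays moved most of the differences below. Of 49 genes refitted with each array left out in turn, 38 moved by over 1.5 times for at least 1 array, 13 of them with a change of sign. The measure is a ratio to the difference reported, so differences near 0 move most easily. Slc13a2, with a difference of 0.0099, was moved by each of the 7 arrays.

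**Figure D1:**
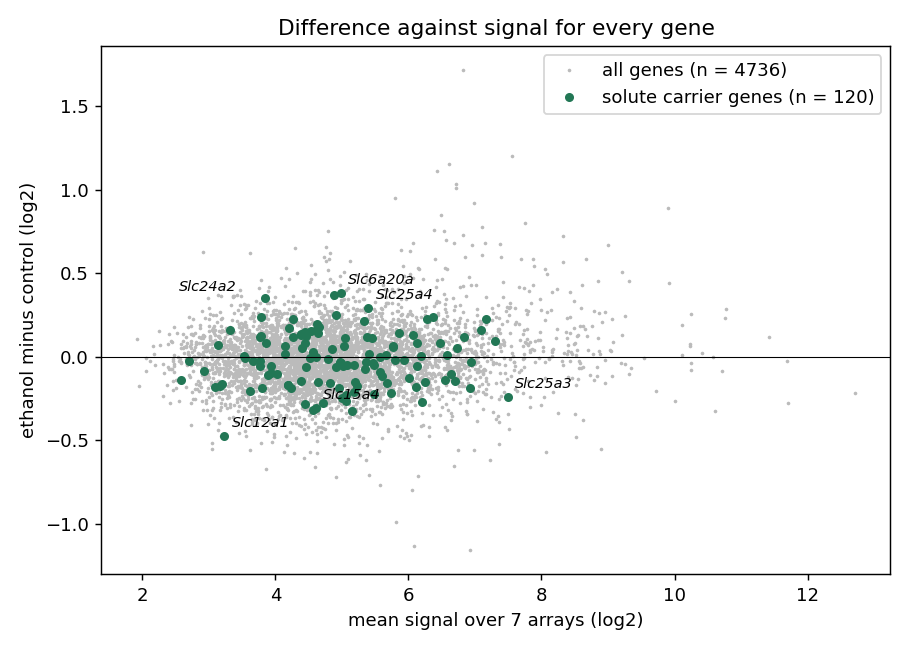
Ethanol minus control difference (log2, vertical axis) against the mean signal over 7 arrays (log2, horizontal axis), for all 4736 genes (grey points) and the 120 solute carrier genes (green points). The carriers lie between -0.47 and 0.38, with none past 0.5 in either direction.

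The brightest probe sets included carriers of the mitochondrial membrane and of amino acids. By mean signal over the 7 arrays the first 10 were Slc25a3, Slc6a9, Slc25a5, Slc7a5, Slc8a1, Slc3a2, Slc14a2, Slc44a4, Slc25a1 and Slc1a1, at the 90.0th to the 96.0th percentile of all genes. Of the 120, 30 lay above the 75th percentile of all genes and 65 above the median gene. Above the 75th percentile were 6 of 12 members of the Slc25 family, 3 of 10 of the amino acid carrier families Slc1, Slc3 and Slc7, 3 of 12 of the Slc2, Slc5 and Slc37 families, 0 of 7 metal carriers and 0 of 6 of the Slc16 family. In the mean of the controls Slc25a3 reached 7.60, far under Sftpc at 12.80. The dimmest were Slc13a1, the sodium sulfate cotransporter of kidney and gut, at 2.58, and Slc10a1, the bile acid uptake carrier of liver, at 2.70 over all arrays.

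**Figure D2:**
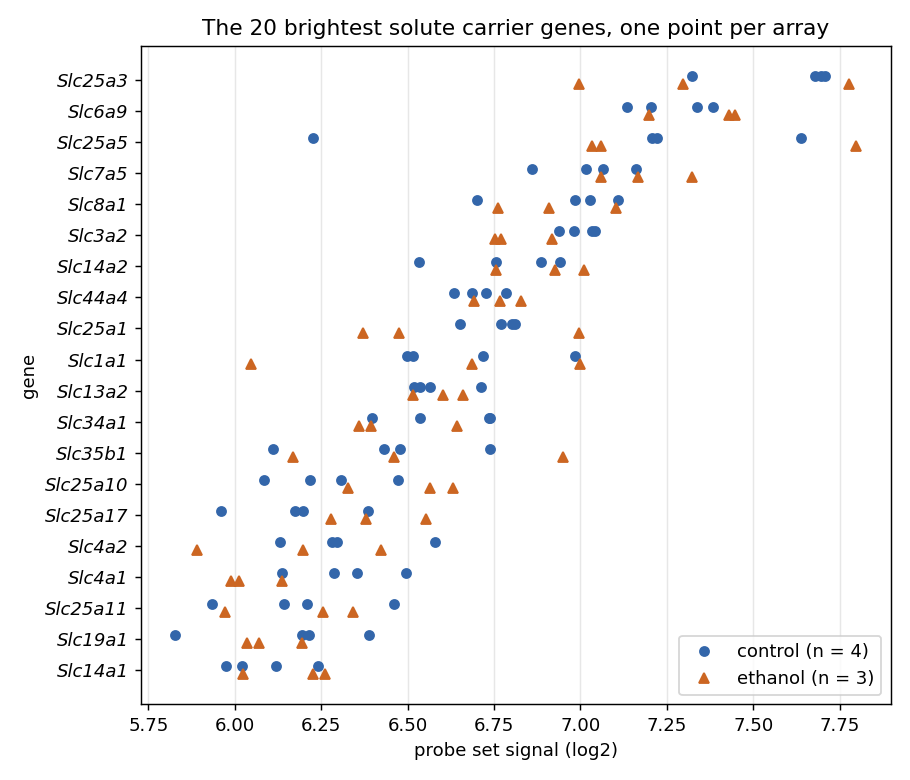
Probe set signal (log2, horizontal axis) of the 20 brightest solute carrier genes, ordered by their mean, with 1 point per array (circles control, n = 4; triangles ethanol, n = 3). The groups overlap in 19 of the 20, and in Slc3a2 the 3 ethanol arrays lie below the 4 controls; Slc25a5 has a single low control at 6.23.

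This order is one of array signal and not of mRNA amount, because a probe set's brightness depends on its probes. Slc8a1, the sodium calcium exchanger gene, had 5 probe sets with control means of 6.96, 5.99, 4.59, 3.44 and 2.77. Slc14a2, the urea transporter of the kidney medulla, had the control mean 6.78 in AF031642_at and 2.79 in U09957_at. The range between the probe sets of a gene had a median of 0.923 log2 units over the 43 genes, exceeded 1 in 20 of them and reached 4.20. Carriers known chiefly from the kidney lay among the bright ones, such as Slc13a2, the dicarboxylate carrier, at a control mean of 6.58, and Slc34a1, the phosphate carrier of the proximal tubule, at 6.60. No detection calls were used, so which of these transcripts were present is not known from the signal alone. Comparisons between diets are made within a probe set, but which probe set stood for a gene does rest on brightness. In 22 of the 43 genes the probe sets pointed both ways.

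Amino acid carriers included the paired chains of the large neutral amino acid exchanger. Values are given in the order of the replicate numbers, 1 to 4 for the controls and 2, 3 and 4 for ethanol. Slc7a5, its transport chain, stood at 7.16, 6.86, 7.02 and 7.07 on the control arrays and at 7.06, 7.32 and 7.17 on the ethanol arrays. Slc3a2, the heavy chain that brings it to the surface, stood at 6.98, 6.94, 7.04 and 7.03 on the control arrays and at 6.75, 6.92 and 6.77 on the ethanol arrays. All 3 ethanol arrays of Slc7a5 lay above the control median with overlap of the groups, and those of Slc3a2 lay below all 4 controls. The differences were 0.16 (95% interval -0.12 to 0.44) and -0.19 (95% interval -0.43 to 0.059), and neither passed (limma adjusted p = 0.967 for both). The other Slc3a2 probe set, X89225cds_s_at, had a difference of -0.36 (95% interval -0.86 to 0.15).

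Slc1a1, a glutamate and cysteine uptake carrier, stood at 6.98, 6.52, 6.50 and 6.72 on the control arrays and at 6.05, 6.69 and 6.9991 on the ethanol arrays. Its ethanol arrays reached past the controls on both sides, and the difference of -0.10 (95% interval -0.60 to 0.39) was 0.16 without ethanol 2 and -0.31 without ethanol 4. Slc7a1, the cationic amino acid carrier for arginine and lysine, had 3 probe sets that did not move alike. The brightest, L10152_s_at, stood at 4.67, 4.51, 4.59 and 4.53 on the control arrays and at 4.63, 4.86 and 4.66 on the ethanol arrays, with a difference of 0.14 (95% interval -0.12 to 0.40). The second, U70476_at, stood at 4.27, 4.82, 4.49 and 4.08 on the control arrays and at 3.70, 3.91 and 3.73 on the ethanol arrays. In this one all ethanol arrays lay below all controls, with a difference of -0.64 (95% interval -1.03 to -0.25), SE 0.175, unadjusted p = 0.00485 and limma adjusted p = 0.832. It had the lowest p of the 181 carrier probe sets. The third was at -0.11. Of the 10 genes of the Slc1, Slc3 and Slc7 families 4 were higher and 6 lower, with a median difference of -0.058.

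In the Slc6, Slc18 and Slc32 families, which carry neurotransmitters, amino acids and osmolytes, 10 of 18 were higher and 8 lower, with a median of 0.032. Slc6a9, the glycine carrier, was the second brightest gene of the set, at 7.20, 7.14, 7.34 and 7.38 on the control arrays and at 7.43, 7.45 and 7.20 on the ethanol arrays. Slc6a20a, the imino acid carrier that takes up proline, had the greatest positive difference, at 4.78, 4.49, 4.96 and 5.05 on the control arrays and at 4.99, 5.34 and 5.28 on the ethanol arrays. The groups overlapped, since ethanol 2 lay between controls 3 and 4. The difference was 0.38 (95% interval 0.021 to 0.75), with an SE of 0.161, unadjusted p = 0.0401 and limma adjusted p = 0.967. Slc6a6, the taurine carrier, stood at 4.49, 3.72, 4.24 and 4.09 on the control arrays and at 4.35, 4.17 and 4.40 on the ethanol arrays, with control 2 the lowest of the 7 arrays and a difference of 0.17 (95% interval -0.22 to 0.57).

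No carrier of the Slc25 family, most of which sit in the inner mitochondrial membrane, passed the test. Slc25a3 brings phosphate into the matrix, Slc25a5 and Slc25a4 are the ADP/ATP translocases, and Slc25a1 exports citrate for fatty acid synthesis. Slc25a3 stood at 7.70, 7.32, 7.68 and 7.71 on the control arrays and at 6.9970, 7.30 and 7.78 on the ethanol arrays. Slc25a5 stood at 7.21, 6.23, 7.22 and 7.64 on the control arrays and at 7.06, 7.03 and 7.80 on the ethanol arrays. Slc25a4 stood at 5.65, 4.06, 5.56 and 5.83 on the control arrays and at 5.17, 5.40 and 6.11 on the ethanol arrays. In all 3 genes control 2 was the lowest control and ethanol 4 the highest of the 7 arrays, and the groups overlapped. The same holds for control 2 and ethanol 4 in 7 of the 12 Slc25 genes, 11 of the 120 carriers and 457 of all 4736 genes, a count made after the values were seen. Over all probe sets the SD of the signal was lowest on control 2 (1.29) and highest on ethanol 4 (1.46). Among the ethanol arrays it was lowest on ethanol 2 (1.34). The part of this spread in the Slc25 counts was not tested, and no comparison was made with genes of like signal. The differences of Slc25a3, Slc25a5 and Slc25a4 were -0.24 (95% interval -0.67 to 0.18), 0.22 (95% interval -0.49 to 0.94) and 0.29 (95% interval -0.62 to 1.20), with adjusted p between 0.967 and 0.971 in limma. That of Slc25a3 was -0.063 without ethanol 2 and -0.45 without ethanol 4. Without control 2 that of Slc25a5 was -0.059 and that of Slc25a4 was -0.12. Without ethanol 4 they were -0.027 and 0.015, so the sign in Slc25a5 rested on either array and in Slc25a4 on control 2. The Slc25a4 and Slc25a5 probe sets, D12770_s_at and D12771_s_at, are of a kind whose probes can read related transcripts, so the translocases may not be fully told apart. Probe sets of the same kind, with names ending in _s_at, stood for other carriers too, among them Slc24a2, Slc7a5, Slc3a2, Slc8a1 and Slc7a1.

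**Figure D3:**
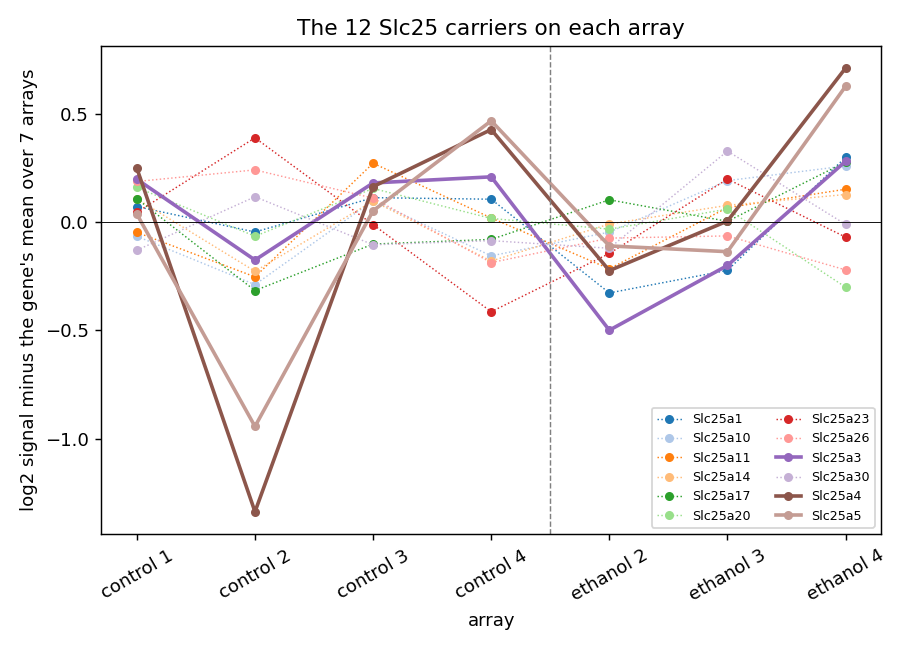
Signal of the 12 Slc25 genes on each array as the difference from the gene's mean over 7 arrays (log2, vertical axis), with the arrays along the horizontal axis and a dashed line between control and ethanol arrays. Slc25a4 and Slc25a5 (thick dark and light brown lines) fall to their lowest on control 2 and are highest on ethanol 4; Slc25a3 (thick purple line) is lowest on ethanol 2.

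Of the 12 Slc25 genes, 9 had their lowest control value in control 2, against 36 of the 120 carriers and 1467 of all 4736 genes. In 8 of the 12 the highest ethanol value was that of ethanol 4, against 31 of the 120 carriers and 1498 of all genes. In 8 the lowest was that of ethanol 2, against 37 of the 120 and 1511 of all genes. The mean over the 12 was 5.89, 5.57, 5.90 and 5.83 in the controls and 5.67, 5.84 and 5.99 with ethanol. Between the diets 7 were higher and 5 lower, with a median of 0.060. Slc25a1 stood at 6.77, 6.65, 6.81 and 6.80 on the control arrays and at 6.37, 6.47 and 6.9972 on the ethanol arrays, with a difference of -0.14 (95% interval -0.50 to 0.21), which was -0.023 without ethanol 2 and -0.34 without ethanol 4. Slc25a10, the dicarboxylate carrier, stood at 6.31, 6.08, 6.47 and 6.22 on the control arrays and at 6.33, 6.56 and 6.63 on the ethanol arrays. Its difference was 0.24 (95% interval -0.068 to 0.54) in this probe set and 0.21 in the next, while the third, rc_AA859666_i_at, was at -0.33 (95% interval -0.80 to 0.13). Slc25a17, a carrier of the peroxisome and not of the mitochondrion, stood at 6.38, 5.96, 6.17 and 6.20 on the control arrays and at 6.38, 6.28 and 6.55 on the ethanol arrays, with a difference of 0.23 (95% interval -0.079 to 0.53).

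The 250 bases upstream of the annotated starts of Slc25a3, Slc25a4 and Slc25a5 are shown, to set side by side the promoters of the carriers that bring phosphate and ADP to ATP synthesis. They are RefSeq sequences of the GRCr8 build, 5′ to 3′ on the gene's strand. Slc25a3 lies on the minus strand at chr7:27506628-27506877, Slc25a4 on the plus strand at chr16:52805271-52805520 and Slc25a5 on the plus strand at chrX:120897366-120897615. Capitals mark the GC box (GGGCGG or its complement CCGCCC) and the CCAAT box (CCAAT or ATTGG).
Slc25a3: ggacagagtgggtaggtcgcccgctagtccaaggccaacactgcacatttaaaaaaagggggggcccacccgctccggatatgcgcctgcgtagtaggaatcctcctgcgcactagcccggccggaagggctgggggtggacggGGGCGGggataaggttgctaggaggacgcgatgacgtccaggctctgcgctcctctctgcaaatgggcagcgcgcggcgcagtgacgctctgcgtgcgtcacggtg
Slc25a4: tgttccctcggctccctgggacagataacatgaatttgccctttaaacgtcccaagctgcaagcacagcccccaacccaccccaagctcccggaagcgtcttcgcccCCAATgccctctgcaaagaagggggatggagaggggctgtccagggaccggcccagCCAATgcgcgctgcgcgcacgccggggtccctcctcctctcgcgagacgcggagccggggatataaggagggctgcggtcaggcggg
Slc25a5: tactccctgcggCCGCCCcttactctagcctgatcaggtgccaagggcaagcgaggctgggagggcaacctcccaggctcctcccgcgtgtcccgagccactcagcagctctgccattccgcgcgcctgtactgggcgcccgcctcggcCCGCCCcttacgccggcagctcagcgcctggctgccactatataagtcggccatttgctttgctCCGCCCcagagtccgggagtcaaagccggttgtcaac
The Slc25a5 window held 3 GC boxes and the Slc25a3 window 1, while the Slc25a4 window held 2 CCAAT boxes and no GC box. The G and C content was 65.2%, 65.6% and 66.8% for Slc25a3, Slc25a4 and Slc25a5. Promoter windows were found for 101 of the 120 carriers and 10 of the 12 Slc25 genes. A GC box on either strand was present in 33.5% of 27457 genes with a window, in 51 of the 101 carriers (50.5%) and in 8 of the 10 Slc25 genes. The 27457 are all annotated genes with a window and not only those on the array. They are thus a set unlike that of the carriers, and the shares are not a test. A CCAAT box was present in 36.1% of all genes, 37.6% of the carriers and 6 of the 10. The TATA box letters TATAAA or TTTATA were in 14.1% of all genes, 8.91% of the carriers and 0 of the 10. Only these exact letters were counted. The Slc25a4 and Slc25a5 windows hold the near form TATAAG, which was not searched for. None of the 3 windows shown held both a GC box and a CCAAT box. A match in these letters is a description and not a site of binding.

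The Slc2, Slc5 and Slc37 families hold the glucose and other sugar carriers, and with them Slc5a3, Slc5a5 and Slc5a6, which carry inositol, iodide and vitamins. Of their 12 genes 5 had a positive and 7 a negative difference, and the median was -0.088. Slc2a1, the basal glucose carrier, stood at 5.81, 5.39, 5.48 and 5.65 on the control arrays and at 5.17, 5.68 and 5.24 on the ethanol arrays. Its difference was -0.22 (95% interval -0.58 to 0.14), and its other probe set, S68135_s_at, pointed the other way at 0.19 (95% interval -0.50 to 0.89). Slc5a1, the sodium-driven glucose carrier, was the brightest of these families, at 5.58, 6.45, 6.08 and 5.91 on the control arrays and at 6.44, 6.02 and 5.95 on the ethanol arrays, with a difference of 0.13 (95% interval -0.34 to 0.60). Slc37a1 and Slc37a4 exchange glucose 6-phosphate for phosphate. Slc37a1 stood at 4.89, 4.12, 5.02 and 4.87 on the control arrays and at 4.93, 5.13 and 5.23 on the ethanol arrays, and Slc37a4, the carrier of the endoplasmic reticulum, at 5.05, 5.17, 5.44 and 5.30 on the control arrays and at 5.55, 5.21 and 5.60 on the ethanol arrays. In Slc37a1 control 2 was far below the other arrays. The differences were 0.37 (95% interval -0.10 to 0.84) and 0.21 (95% interval -0.11 to 0.54) (limma adjusted p = 0.967 for both). Without control 2 that of Slc37a1 was 0.17.

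Exchangers of protons, bicarbonate and chloride set cell pH. Slc4a2, the housekeeping anion exchanger, stood at 6.58, 6.13, 6.30 and 6.28 on the control arrays and at 5.89, 6.20 and 6.42 on the ethanol arrays, with a difference of -0.15 (95% interval -0.51 to 0.21) and 0.037 in its other probe set. The former was -0.011 without ethanol 2 and -0.28 without ethanol 4. Slc4a1, the anion exchanger of red blood cells, stood at 6.35, 6.50, 6.29 and 6.14 on the control arrays and at 6.14, 6.01 and 5.99 on the ethanol arrays. Ethanol 2 lay just above the lowest control and the other ethanol arrays lay below it. The difference was -0.27 (95% interval -0.55 to 0.0068), unadjusted p = 0.0548 and limma adjusted p = 0.967. Beside it, the red cell genes Hbb and Alas2 had differences of 0.46 and -0.24, and the SD of Hbb over the ethanol arrays was 1.65. The mean of both was 6.11 to 6.44 on the controls and 5.48 to 7.22 on the ethanol arrays. Their part in the Slc4a1 value was not tested. Slc9a2, a sodium proton exchanger, was dim, at 3.68, 3.61, 3.77 and 3.68 on the control arrays and at 4.11, 3.71 and 3.94 on the ethanol arrays, with a difference of 0.24 (95% interval -0.049 to 0.52). Of the 10 genes of this class 6 were higher and 4 lower.

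The cation chloride cotransporters set cell chloride and volume. Slc12a2, the form that loads chloride in secretory epithelia, stood at 5.54, 5.45, 5.40 and 5.24 on the control arrays and at 5.30, 5.64 and 5.62 on the ethanol arrays. Its 4 probe sets had differences of 0.11, 0.029, 0.18 and 0.25, all above 0, and the last had an unadjusted p = 0.0507 (limma adjusted p = 0.967). Slc12a4, a potassium chloride cotransporter, was the brightest of the class, at 6.04, 5.82, 6.05 and 5.86 on the control arrays and at 5.72, 6.14 and 5.92 on the ethanol arrays, with a difference of -0.021 (95% interval -0.33 to 0.29). Slc12a1, the kidney form, was near the bottom of the array's range, at 3.46, 4.21, 3.28 and 2.79 on the control arrays and at 3.08, 2.91 and 2.90 on the ethanol arrays. Control 2 was the highest and control 4 the lowest of the 7 arrays, and the difference of -0.47 (95% interval -1.09 to 0.15) was -0.22 without control 2. In this class 1 of 6 was higher.

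**Figure D4:**
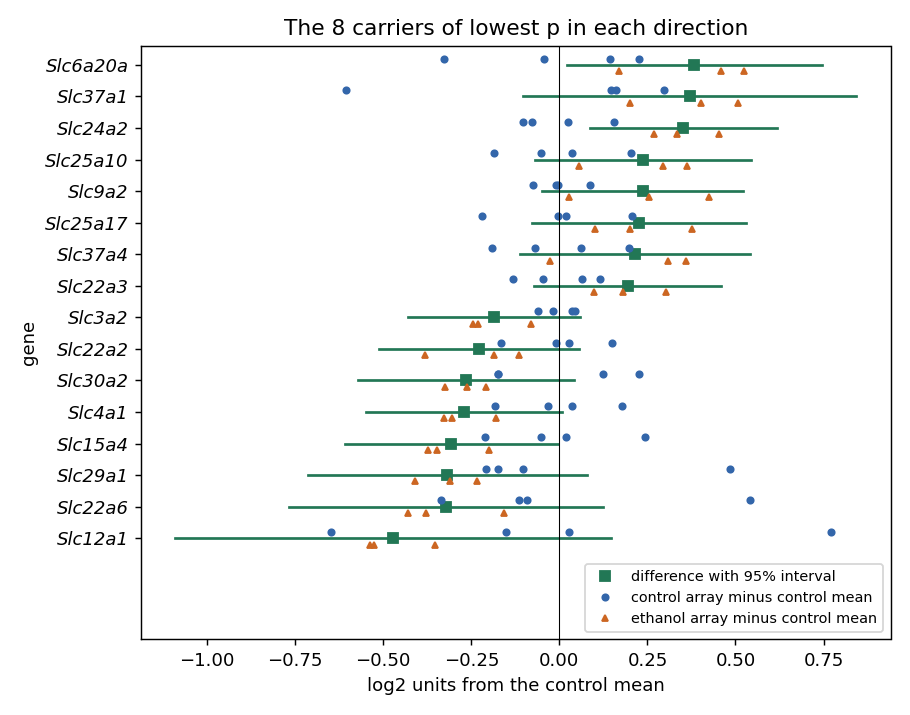
Ethanol minus control difference (squares) with its 95% interval (lines), and the signal of each control (circles) and ethanol array (triangles) as log2 units from the control mean, for the 8 carriers of lowest unadjusted p in each direction. Only Slc6a20a, Slc24a2 and Slc15a4 have intervals that leave 0 out. In Slc12a1, Slc22a6, Slc29a1 and Slc37a1 control 2 lies far from the other controls.

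Calcium exchangers gave the carrier gene with the lowest p. Slc24a2, the potassium-dependent sodium calcium exchanger known from retina and brain, stood at 3.62, 3.60, 3.72 and 3.85 on the control arrays and at 4.15, 4.03 and 3.97 on the ethanol arrays. All 3 ethanol arrays lay above all 4 controls. The means were 3.70 ± 0.117 in the controls (SD, n = 4) and 4.05 ± 0.0941 with ethanol (SD, n = 3), a difference of 0.35 (95% interval 0.086 to 0.62), SE 0.1185, unadjusted p = 0.0148 and limma adjusted p = 0.967. Its signal lay at the 18.7th percentile of all genes, and the other probe set, AF021923_at, was at -0.11 (95% interval -0.44 to 0.23). Slc8a1, the main exchanger of heart and smooth muscle, stood at 6.70, 7.11, 7.03 and 6.98 on the control arrays and at 7.10, 6.91 and 6.76 on the ethanol arrays, with a difference of -0.031 (95% interval -0.35 to 0.29). Its 5 probe sets ran from -0.062 to 0.10.

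Peptide carriers differed in sign. Slc15a2, the high-affinity peptide carrier of the type 2 cell surface, stood at 4.21, 4.33, 4.02 and 4.13 on the control arrays and at 4.06, 4.46 and 4.68 on the ethanol arrays, with a difference of 0.23 (95% interval -0.14 to 0.59). Slc15a4, the histidine and peptide carrier of lysosomes, stood at 4.69, 4.98, 4.76 and 4.53 on the control arrays and at 4.37, 4.54 and 4.39 on the ethanol arrays. Ethanol 3 lay just above control 4, and the other ethanol arrays lay below every control. The difference was -0.31 (95% interval -0.61 to -0.0051), with an SE of 0.134, unadjusted p = 0.04695 and limma adjusted p = 0.967. Slc15a1, the third, did not pass either.

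Of the 4 nucleoside carriers 3 were higher and 1 lower. Slc29a1, the equilibrative nucleoside carrier that takes up adenosine, stood at 4.53, 5.18, 4.60 and 4.49 on the control arrays and at 4.29, 4.46 and 4.39 on the ethanol arrays. All ethanol arrays lay below all controls, but control 2 was far above the rest. The difference was -0.32 (95% interval -0.71 to 0.077), and -0.16 without control 2. Slc29a2, its brighter relative, was at 5.81, 5.41, 5.87 and 5.90 on the control arrays and at 5.89, 5.77 and 5.76 on the ethanol arrays, a difference of 0.056 (95% interval -0.27 to 0.38). Of the 8 organic ion carriers 2 were higher and 6 lower, with a median of -0.17. Slc22a2, an organic cation carrier of the kidney, stood at 5.14, 5.18, 5.30 and 4.99 on the control arrays and at 5.04, 4.77 and 4.97 on the ethanol arrays, and Slc22a6, the renal organic anion carrier, at 5.17, 5.83, 5.19 and 4.95 on the control arrays and at 4.85, 5.13 and 4.91 on the ethanol arrays. The ethanol arrays overlapped the controls in both, and in Slc22a6 control 2 was well above the rest. Their differences were -0.23 (95% interval -0.51 to 0.055) and -0.32 (95% interval -0.77 to 0.12), the latter -0.14 without control 2. Slc22a3, the organic cation carrier of many non-renal tissues, pointed up, at 4.50, 4.67, 4.61 and 4.42 on the control arrays and at 4.65, 4.73 and 4.85 on the ethanol arrays, a difference of 0.19 (95% interval -0.072 to 0.46). Slc22a7, the brightest of the class, stood at 6.19, 6.05, 6.41 and 6.11 on the control arrays and at 6.06, 6.10 and 5.87 on the ethanol arrays, a difference of -0.18 (95% interval -0.47 to 0.11). Adjusted p in limma was 0.967 to 0.974 for these 6 genes.

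Metal carriers showed no pass, with 3 of 7 higher and 4 lower. Slc30a2, a vesicular zinc carrier, stood at 4.9968, 5.40, 5.30 and 4.9989 on the control arrays and at 4.91, 4.96 and 4.85 on the ethanol arrays. Its ethanol arrays lay below every control, with a difference of -0.26 (95% interval -0.57 to 0.042), SE 0.1365 and limma adjusted p = 0.967. Slc11a2, the iron uptake carrier DMT1, stood at 5.08, 5.04, 4.86 and 5.03 on the control arrays and at 4.9964, 5.03 and 5.33 on the ethanol arrays, and its 3 probe sets lay between 0.019 and 0.11. Slc40a1, the iron exporter ferroportin, stood at 4.05, 3.84, 4.08 and 3.87 on the control arrays and at 3.99, 3.95 and 3.78 on the ethanol arrays, with a difference of -0.052 (95% interval -0.33 to 0.22). Of 8 measured genes of iron, zinc and copper handling 3 were higher and 5 lower with 0 passing. Among them the transferrin receptor gene Tfrc was at 0.28, the metallothionein gene Mt3 at -0.11 and the iron regulatory protein gene Aco1 at 0.30.

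No gene of the Slc44, Slc27 and Slc16 families passed. Slc44a4, of the choline transporter-like family, stood at 6.79, 6.69, 6.64 and 6.73 on the control arrays and at 6.83, 6.69 and 6.77 on the ethanol arrays, with overlap of the groups and a difference of 0.054 (95% interval -0.19 to 0.30). Slc27a2, a fatty acid carrier and acyl-CoA synthetase, stood at 5.78, 6.08, 5.77 and 5.55 on the control arrays and at 6.11, 5.9960 and 5.70 on the ethanol arrays, a difference of 0.14 (95% interval -0.21 to 0.50). Slc16a1, the carrier of lactate, pyruvate and ketone bodies, stood at 5.72, 5.14, 5.72 and 5.86 on the control arrays and at 5.20, 5.47 and 5.89 on the ethanol arrays. In Slc16a1 control 2 and ethanol 2 were the lowest of their groups, as in Slc25a3, and the difference was -0.091 (95% interval -0.56 to 0.38). Its other probe set was at -0.21. Of the 6 genes of the Slc16 family 1 was higher and 5 lower, and Slc16a6 had the lowest p. It stood at 3.79, 4.17, 3.91 and 3.64 on the control arrays and at 3.77, 3.55 and 3.74 on the ethanol arrays, a difference of -0.19 (95% interval -0.52 to 0.14).

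The remaining classes held 2 to 5 genes each. Both urea carriers were higher. Slc14a2 stood at 6.53, 6.94, 6.88 and 6.76 on the control arrays and at 7.01, 6.93 and 6.76 on the ethanol arrays, with a difference of 0.12 (95% interval -0.19 to 0.42) and overlap of the groups. Both phosphate carriers were lower. Slc34a1 stood at 6.54, 6.74, 6.74 and 6.40 on the control arrays and at 6.64, 6.39 and 6.36 on the ethanol arrays, with a difference of -0.14 (95% interval -0.44 to 0.17), and its 5 probe sets ran from -0.15 to 0.095. The 3 genes of the Slc19, Slc23 and Slc52 families were lower. The multivitamin carrier gene Slc5a6, of another family, was at -0.12 and at 0.059 in its other probe set. Slc19a1, the reduced folate carrier, stood at 5.83, 6.21, 6.39 and 6.20 on the control arrays and at 6.20, 6.04 and 6.07 on the ethanol arrays, a difference of -0.056 (95% interval -0.39 to 0.27). Slc52a3, a riboflavin carrier, stood at 4.94, 5.20, 5.0001 and 4.99 on the control arrays and at 4.98, 4.84 and 4.71 on the ethanol arrays, a difference of -0.19 (95% interval -0.46 to 0.088). The groups overlapped in both.

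Of the 5 genes of the Slc10 and Slc13 families, which carry bile acids, carboxylates and sulfate, 1 was higher. Slc13a2 stood at 6.54, 6.52, 6.71 and 6.57 on the control arrays and at 6.52, 6.66 and 6.60 on the ethanol arrays, a difference of 0.0099 (95% interval -0.24 to 0.26). Slc13a1 was the dimmest of all carriers, at 2.58, 2.72, 2.72 and 2.53 on the control arrays and at 2.41, 2.48 and 2.60 on the ethanol arrays, a difference of -0.14 (95% interval -0.40 to 0.12). The groups overlapped in both. Slc17a7, the vesicular glutamate carrier of neurons, stood at 4.50, 4.37, 4.63 and 4.71 on the control arrays and at 4.45, 4.73 and 4.56 on the ethanol arrays, a difference of 0.026 (95% interval -0.27 to 0.32). Slc17a1, a renal anion carrier, stood at 3.92, 4.08, 4.17 and 3.71 on the control arrays and at 4.25, 3.62 and 3.75 on the ethanol arrays, a difference of -0.095 (95% interval -0.50 to 0.31). The groups overlapped here too. Slc35f6, with the lowest p of the 4 genes of the Slc35 and Slc44 families, stood at 3.41, 3.11, 3.21 and 3.29 on the control arrays and at 3.46, 3.4960 and 3.29 on the ethanol arrays, a difference of 0.16 (95% interval -0.11 to 0.44). The limma adjusted p of these genes and of those in the paragraph above was 0.967 to 0.996.

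Of the 43 carriers with several probe sets, all probe sets of 21 pointed the same way and those of 22 pointed both ways. At unadjusted p under 0.05 there were 5 of the 181 carrier probe sets (2.76%), where the share of all probe sets was 4.58%. Beside those of Slc7a1, Slc24a2, Slc6a20a and Slc15a4, the fifth was U07183_at of Slc10a2, the ileal bile acid carrier. It stood at 3.28, 3.01, 3.25 and 2.55 on the control arrays and at 2.50, 2.52 and 2.61 on the ethanol arrays, near the lower end of the range, with a difference of -0.47 (95% interval -0.87 to -0.075). The brighter Slc10a2 probe set was at -0.15.

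**Figure D5:**
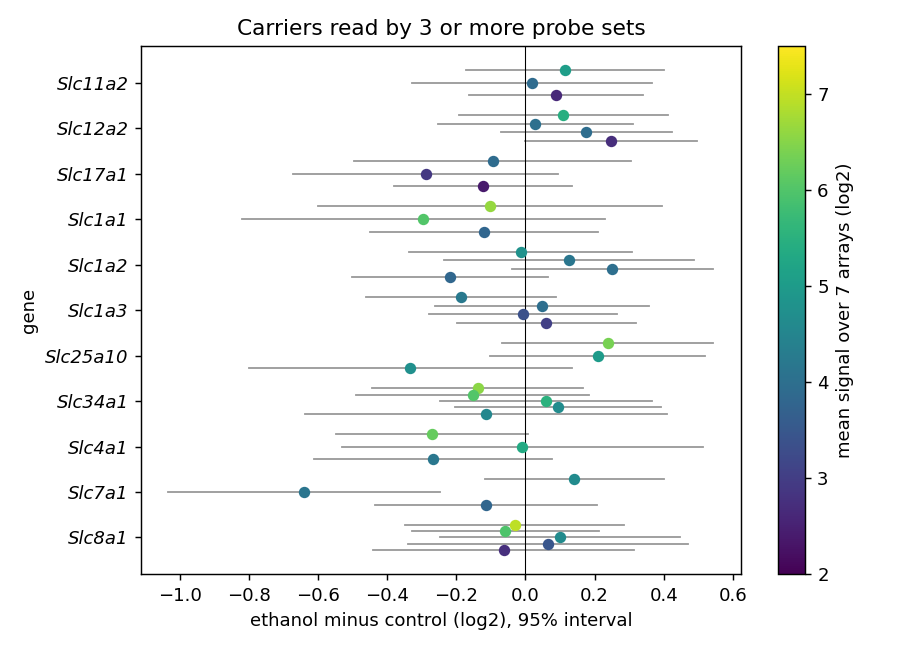
Ethanol minus control difference (log2, horizontal axis) with its 95% interval for each probe set of the carriers read by 3 or more probe sets; colour gives the mean signal over 7 arrays. Only U70476_at of Slc7a1, at -0.64, has an interval that leaves 0 out.

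The proteins around the carriers were read from lists, and none passed. Among 11 sodium and proton pump genes there were 3 with a positive and 8 with a negative difference, and the median was -0.045 (all genes -0.014). Atp1b1, the main beta subunit of the sodium pump, was at 0.39 (SE 0.197), Atp1b2 at -0.0029 and the vacuolar proton pump gene Atp6v1b2 at -0.71 (SE 0.350), all with a limma adjusted p of 0.967 to 0.999. Of 12 chaperones, scaffolds and kinases 7 were higher and 5 lower. Bsg, the surface chaperone of the lactate carriers, was at -0.050, its relative Emb at 0.090 and the AMP-activated kinase gene Prkaa1 at 0.23. Of the 5 organic anion transporting polypeptides, the Slco family, 3 were higher, with Slco1a1 at 0.068, Slco1a4 at -0.22 and Slco1a5 at 0.27 (unadjusted p = 0.0393, limma adjusted p = 0.967). Of 14 ABC transporters, which hydrolyse ATP to move their substrates, 7 were higher and 7 lower with a median of 0.0067, and Abcb1a, Abcb1b and Abcc8 were at 0.093, -0.010 and -0.21.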

How the data were processed

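The deposited table held 8799 probe sets on 7 arrays; its values were read as the authors' log2 expression values from their range and nearly equal array means. Per the labels' protocols, RNA was extracted with Trizol and biotinylated. Summarisation, background correction and normalization are not given in the sources used here. The 59 array controls were left out. Of 8740 probe sets, 7006 had 1 gene symbol in the platform annotation, 308 several and 1426 none; 2 Slc probe sets with several symbols were left out. All 120 carriers matched RefSeq by Entrez identifier, with 0 symbols changed. limma 3.58.1 in R 4.3.3 fitted diet group to all 8740 probe sets, two-sided, with Benjamini-Hochberg adjustment and 0.05 as threshold; the fit was tested on simulated data. Figures used matplotlib 3.10.9 in Python 3.11.15.

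Genes given in full were the 10 brightest, the 8 of lowest p in each direction, 15 measured genes of known supply roles, genes whose probe sets disagree by over 0.5, each substrate class's (grouped by whole families) brightest and lowest-p gene, and Slc25a4, taken after its values were seen. Non-members came from lists, by the first 2 measured and the lowest p. The members and lists were chosen with earlier results of these data known. As alternatives, the values were quantile normalized or centred on each median, dim probe sets were dropped at 2 limits, and the fit was repeated with other variance models, array weights, a replicate block, other probe sets per gene and each array left out. The number of arrays limits the precision.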

Additional observations from a re-analysis of the deposited data

Results flagged for a closer look

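In each of the 120 carriers the 4 controls were searched for an array far from the others, by its gap to the nearest control over the range of the 4. It was found in 8 genes (6.67%), and chance gives about 1 in 20. Control 2 was that array in 4 of them. Slc25a3 lay at 7.32 there against 7.68 to 7.71 in the other controls, Slc25a4 at 4.06 against 5.56 to 5.83, Slc37a1 at 4.12 against 4.87 to 5.02, and Slc29a1 at 5.18 against 4.49 to 4.60. Control 4 was low in Slc27a1, a fatty acid carrier gene, at 5.30 against 5.57 to 5.60, and in Slc2a4, the insulin-responsive glucose carrier gene, at 5.57 against 5.91 to 5.95. Control 1 was low in Slc28a1, a concentrative nucleoside carrier gene, at 5.53 against 5.70 in each of the others. Control 3 was high in Slc6a11, a GABA carrier gene, at 5.80 against 5.33 to 5.40.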

How the results depend on the processing

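The count of carriers with adjusted p under 0.05 in limma was 0 under each of the 18 alternatives, with 1 to 11 carriers at unadjusted p under 0.05 (3 in the fit reported). The 11 came with array weights (lowest adjusted p = 0.275), 9 without control 4 (0.444), and 1 each without control 1, without control 2 and with the probe sets under the median signal left out (74 carriers tested). The share over all genes was not computed under these alternatives, so the counts cannot be read as an excess or a lack among carriers. The median difference of the carriers ran from -0.046 to 0.013 with each array left out. Replicate numbers 2, 3 and 4 occur in both groups, but nothing in the labels pairs the animals, and the deviations of same-numbered arrays correlated at 0.43, 0.067 and 0.43. With the replicate block 0 carriers passed, with 4 at unadjusted p under 0.05 and a median of -0.026.

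Signs changed in the genes below, none of them called, and for most the cause was not tested. With quantile normalization Slc13a2 was at -0.039. With array weights Slc12a4 was at 0.040, Slc13a2 at -0.00030, Slc25a4 at -0.0045, Slc25a5 at -0.036 and Slc29a2 at -0.035. With the replicate block Slc12a4 was at 0.012, Slc13a2 at -0.0057 and Slc5a1 at -0.013. With the dimmest probe set of a gene Slc12a4 was at 0.077, Slc14a2 at -0.031, Slc22a3 at -0.046, Slc24a2 at -0.11, Slc25a10 at -0.33, Slc2a1 at 0.19, Slc4a2 at 0.037 and Slc7a1 at -0.11. With all probe sets of a gene averaged, Slc12a4 was at 0.028, Slc7a1 at -0.20 and Slc8a1 at 0.0025. With each array left out, 38 of 49 named differences moved by over 1.5 times and 11 did not. The ranges that crossed 0 were -0.13 to 0.082 for Slc12a4, -0.024 to 0.053 for Slc13a2, -0.022 to 0.28 for Slc5a1, -0.051 to 0.091 for Slc17a7, -0.12 to 0.48 for Slc25a4, -0.059 to 0.41 for Slc25a5, -0.057 to 0.11 for Slc29a2, -0.12 to 0.051 for Slc8a1, -0.17 to 0.021 for Slc19a1, -0.28 to 0.068 for Slc16a1, -0.31 to 0.16 for Slc1a1, -0.28 to 0.032 for Slc17a1 and -0.095 to 0.011 for Slc40a1.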
